A study of Mus musculus with 2 samples.

Results

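Transcripts of the receptor for IgE and of the receptor for IL-33 were read in cells sorted from cultured mouse embryo and yolk sac (YS) explants. The 4 genes were *Fcer1a*, *Ms4a2* and *Fcer1g*, which encode the alpha, beta and gamma subunits of the high-affinity IgE receptor, and *Il1rl1*, which encodes ST2, the chain of the IL-33 receptor that binds the cytokine. They were chosen by name from the 11691 genes of the table, and all 4 were present. Intraembryonic tissues and yolk sacs of C57/BL6 concepti at E8.5 (5–7 somite pairs) were cultured apart for 9–10 days with SCF, IL-3 and FLT3 Ligand, each at 100 ng/ml. The embryo explants (Em-Ex) and YS explants (YS-Ex) were each pooled, sorted as CD31+CD45+c-Kit+CD41- cells and captured as 1 droplet library. Both cultures had the same cytokines, and no uncultured cells were analysed here. With 1 library per condition, no test was run, and every 95% interval given here covers counting error only.

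In this assay every captured transcript carries a unique molecular identifier (UMI), so that a count of UMIs stands for captured transcripts. After the filter on cells that the study's methods state, 3071 of 3504 Em-Ex barcodes, with a median of 12341 UMIs, and 2087 of 3037 YS-Ex barcodes, with a median of 11729 UMIs, remained. Of the barcodes, 35 occurred in both libraries. Levels are given as CPM, which is the number of UMIs from a gene in every 1000000 UMIs that the cells of a group hold together. Within each library, a gene of the table had UMIs in at least 30 barcodes or in none.

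The IgE receptor of mast cells and basophils is built from an alpha chain that binds IgE, a beta chain that amplifies the signal and a pair of signalling gamma chains. The kinases Lyn and Syk act at the beta and gamma chains. The gamma chain is not particular to this receptor, as several Fc receptors and C-type lectin receptors of myeloid cells use it as well. ST2 signals together with the accessory chain Il1rap through Myd88, and mast cells are among the cells known to carry it. *Cpa3*, which encodes the granule protease carboxypeptidase A3, served as the measure of mast cell character in single cells.

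*Fcer1a* lies on chromosome 1 from 173221284 to 173227214, *Fcer1g* on chromosome 1 from 171229572 to 171234365 and *Ms4a2* on chromosome 19 from 11615523 to 11623719, all on the minus strand of GRCm38. *Il1rl1* lies on the plus strand of chromosome 1 from 40429570 to 40465415. None of the 4 overlapped another annotated gene. The annotation gives *Il1rl1* 5 protein-coding transcripts, whose 3′ ends range from 40441407 to 40465415, and the table holds 1 count for all of them. Transcripts of the membrane receptor and of the shorter soluble form can therefore not be told apart in its counts.

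The sequence before the start sites is shown because GATA factors, which read the letters TGATAA, the letters TGATAG, the letters AGATAA or the letters AGATAG on either strand, act in mast cells, and the 4 genes differed in these letters. The 250 bases before each start come from RefSeq on GRCm38.p6, printed 5′ to 3′ on the strand of the gene, with the matches in capitals. They cover chr1:173227230-173227479 for *Fcer1a*, chr19:11623720-11623969 for *Ms4a2* and chr1:40429320-40429569 for the upstream start of *Il1rl1*.
Fcer1a: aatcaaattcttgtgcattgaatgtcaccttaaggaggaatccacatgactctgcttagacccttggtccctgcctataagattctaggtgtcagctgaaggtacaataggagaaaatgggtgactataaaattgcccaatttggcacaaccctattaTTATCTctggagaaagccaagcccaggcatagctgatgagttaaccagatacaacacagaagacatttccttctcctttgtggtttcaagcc
Ms4a2: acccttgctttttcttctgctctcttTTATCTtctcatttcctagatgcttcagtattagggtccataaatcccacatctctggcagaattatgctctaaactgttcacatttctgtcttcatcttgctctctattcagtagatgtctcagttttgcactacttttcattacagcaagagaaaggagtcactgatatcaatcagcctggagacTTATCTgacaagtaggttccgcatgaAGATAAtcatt
Il1rl1: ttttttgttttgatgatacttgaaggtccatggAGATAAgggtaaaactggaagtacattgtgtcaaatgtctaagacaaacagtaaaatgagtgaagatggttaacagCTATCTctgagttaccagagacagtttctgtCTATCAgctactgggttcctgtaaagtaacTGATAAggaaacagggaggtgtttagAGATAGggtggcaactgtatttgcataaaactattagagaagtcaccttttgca

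In windows of 300 bases, from 250 before to 50 after the start, *Fcer1a* had 1 match and *Ms4a2* had 3. The upstream start of *Il1rl1* had 5 matches, and its downstream start had 1. *Fcer1g* had 0 matches, which says only that these letters are not in its window. Of 32851 mouse promoter windows of this length, 29.8% held at least 1 match, 7.77% at least 2 and 1.76% at least 3. A match is a description of the letters and not a bound site, and the counts do not show which start of *Il1rl1* was used.

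The 4 genes were at very unequal levels. *Fcer1a* had 526 UMIs in Em-Ex, or 12.3 CPM (11.3–13.4), and 483 UMIs in YS-Ex, or 17.9 CPM (16.3–19.5). *Ms4a2* had 1737 UMIs in Em-Ex, or 40.6 CPM (38.7–42.6), and 1751 UMIs in YS-Ex, or 64.8 CPM (61.8–67.9). *Fcer1g* was far above both, with 91669 UMIs in Em-Ex, or 2144 CPM (2130.3–2158), and 70878 UMIs in YS-Ex, or 2622 CPM (2603–2641). The order from *Fcer1a* over *Ms4a2* to *Fcer1g* was the same in both libraries, with intervals that did not overlap. *Il1rl1* was at 330 CPM (324–335) in Em-Ex against 898 CPM (887–909) in YS-Ex, between *Ms4a2* and *Fcer1g*. Since each captured transcript is counted once, genes were compared without division by length, and how well each transcript is captured is not known.

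All 4 genes were higher in YS-Ex when all cells were pooled, by different amounts. *Il1rl1* was 2.72 times as high (2.67–2.78), *Ms4a2* 1.59 times (1.49–1.70), *Fcer1a* 1.45 times (1.28–1.65) and *Fcer1g* 1.22 times (1.21–1.23). *Il1rl1* was thus the only 1 of the 4 past 2-fold, where 9.84% of the 7227 genes with at least 10 CPM in a library were at least 2-fold higher in YS-Ex and 5.33% at least 2-fold lower. *Cpa3* was itself 1.89 times as high (1.88–1.90) in YS-Ex, at 16368 CPM against 8656 CPM. *Kit*, whose protein was used in the sort, was at 963 CPM against 262 CPM, 3.68 times as high (3.60–3.76).

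**Figure D1:**
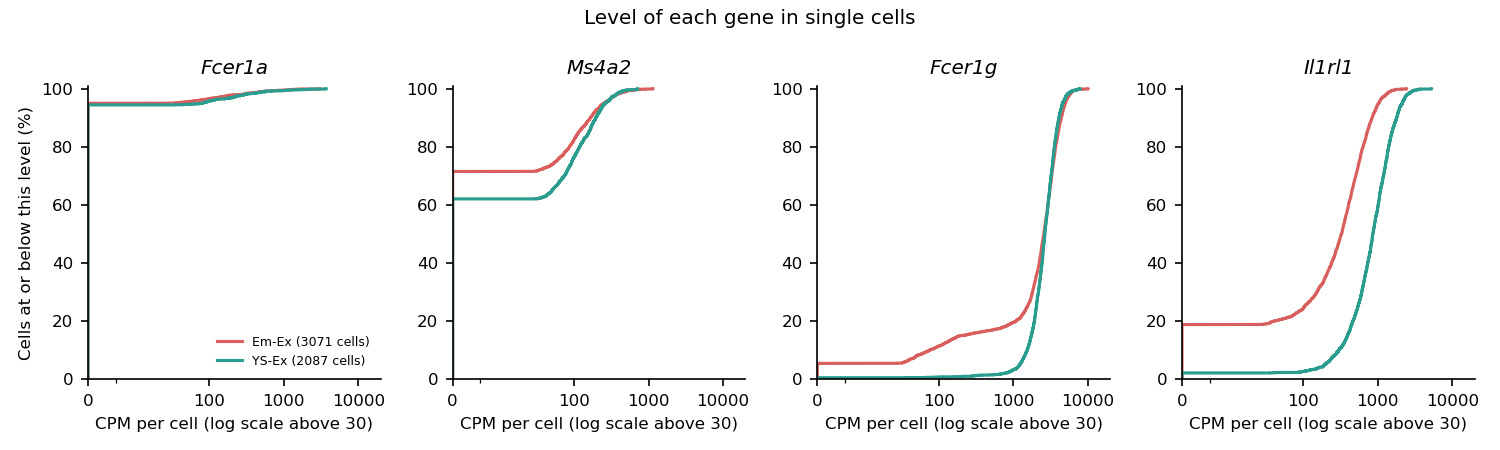
Share of cells (%) at or below each level (CPM per cell, log scale above 30) for the 4 genes, with 1 line per library. The lines of *Il1rl1* stand apart over their whole course, with medians of 325 CPM in Em-Ex against 856 CPM in YS-Ex, while those of *Fcer1g* cross above their medians of 2582 CPM and 2663 CPM.

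The single cells showed where these differences lay. In the median cell *Fcer1g* was nearly equal, at 2582 CPM (Em-Ex) and 2663 CPM (YS-Ex). At the 10th percentile, however, *Fcer1g* was at 76.5 CPM in Em-Ex against 1546 CPM in YS-Ex. *Il1rl1* differed throughout, with a median of 325 CPM in Em-Ex against 856 CPM in YS-Ex and a 90th percentile of 836 CPM and 1789 CPM. *Ms4a2* and *Fcer1a* were at 0 UMIs in the median cell of both libraries.

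UMIs of *Fcer1g* were found in 94.6% (93.7–95.4%) of the cells from Em-Ex and 99.5% (99.1–99.8%) of those from YS-Ex, and UMIs of *Il1rl1* in 81.2% (79.8–82.6%) and 97.9% (97.2–98.5%). *Ms4a2* was found in 28.5% (26.9–30.1%) and 37.9% (35.8–40.02%) of the cells. *Fcer1a* was found in only 4.95% (4.21–5.78%) of Em-Ex and 5.51% (4.57–6.58%) of YS-Ex cells. After a draw of 3000 UMIs from every cell, a depth that each of them reached, the shares of *Fcer1g* were 86.5% and 98.9%, those of *Il1rl1* 56.2% and 87.2%, those of *Ms4a2* 11.2% and 13.8% and those of *Fcer1a* 2.28% (1.78–2.87%) and 3.45% (2.71–4.33%). As a comparison for low levels, the genes were read in clusters led by genes of other lineages, where the source of their UMIs was not tested. In 23 Em-Ex cells of cluster 11, led by *Actc1*, *Cdkn1c*, *Acta2*, *Meg3* and *Serpinh1*, with a median of 6357 UMIs, *Fcer1g* was at 98.8 CPM (58.6–156) with UMIs in 43.5% of the cells. The other 3 genes had 0 UMIs there, which allows up to 16.5 CPM each.

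*Fcer1a* was spread over the cells unlike the other genes. If its UMIs fell on all cells at a single level, 15.4% of Em-Ex and 20.2% of YS-Ex cells would have had at least 1, well above the shares found. Instead, 31 Em-Ex cells with 5 or more UMIs, 1.01% of the library, held 61.8% of all its UMIs, and 25 YS-Ex cells (1.20%) held 66.3%. The highest cell had 36 UMIs of *Fcer1a* in Em-Ex and 45 in YS-Ex. The highest 1% of cells held 12.7% of *Ms4a2*, 3.52% of *Fcer1g* and 4.77% of *Il1rl1* UMIs in Em-Ex, and 9.77%, 2.90% and 3.49% in YS-Ex, where the deepest 1% of cells held 2.49% of all UMIs in each library. Because so few cells carried it, the counting intervals of *Fcer1a* are narrower than its spread over cells would give.

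**Figure D2:**
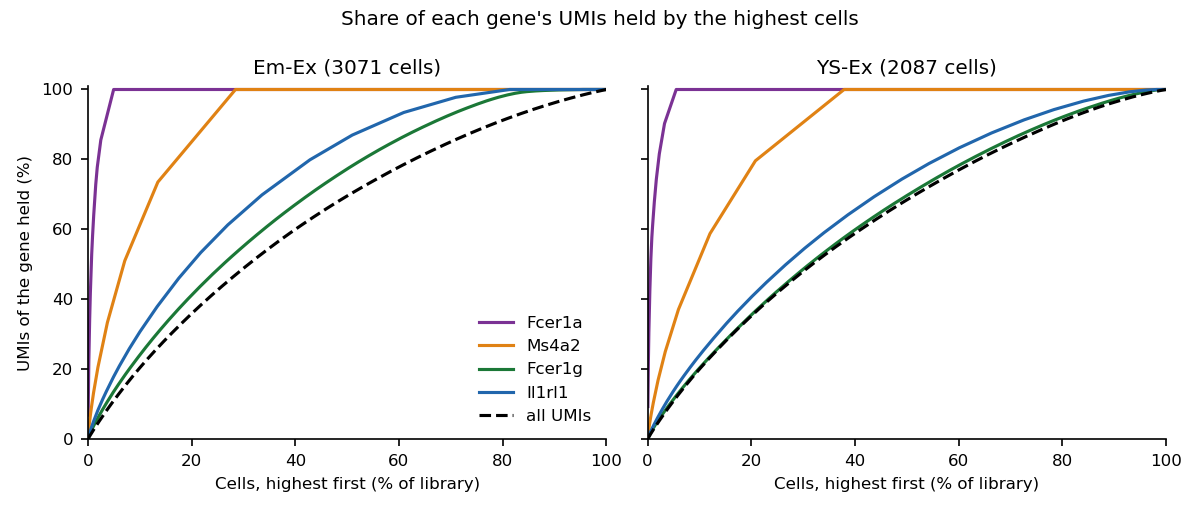
UMIs of each gene held (%) against the cells that hold them, ordered from the highest down (% of the library), for Em-Ex and YS-Ex, with all UMIs of the cells as a dashed line. The line of *Fcer1a* reaches 100% within the first 4.95% of Em-Ex and 5.51% of YS-Ex cells, whereas that of *Fcer1g* runs close to the dashed line.

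The subunits were then set against each other as UMIs in the same cells. For each UMI of *Fcer1a*, Em-Ex cells had 3.30 (2.99–3.65) of *Ms4a2* and 174 (160–190.2) of *Fcer1g*, and YS-Ex cells had 3.63 (3.28–4.02) and 147 (134–161). These ratios depended on few cells. Without the cells of 5 or more *Fcer1a* UMIs, a limit set after the values were seen, they were 8.33 and 450.0 in Em-Ex. In YS-Ex they were then 10.6 and 428. For each UMI of *Ms4a2* there were 52.8 (50.3–55.4) of *Fcer1g* in Em-Ex and 40.5 (38.6–42.5) in YS-Ex. The assembled receptor of mast cells holds 1 alpha, 1 beta and 2 gamma chains, and the pooled transcripts were not in this ratio in either library. *Tyrobp*, which encodes DAP12, an adaptor related to the gamma chain, was at nearly the level of *Fcer1g*, with 1.10 UMIs per *Fcer1g* UMI in Em-Ex and 0.983 in YS-Ex.

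UMIs of all 3 subunits were found together in 68 Em-Ex cells (2.21%, 1.72–2.80%) and 43 YS-Ex cells (2.06%, 1.495–2.77%). Cells with *Fcer1g* but neither of the other subunits were 63.5% of Em-Ex and 58.2% of YS-Ex with all UMIs, but 73.9% (72.4–75.5%) and 82.5% (80.8–84.1%) at 3000 UMIs per cell, so that the order of the libraries depended on depth. Another 26.2% of Em-Ex and 35.8% of YS-Ex cells had *Ms4a2* and *Fcer1g* without *Fcer1a*. *Fcer1a* without *Ms4a2* was seen in 84 Em-Ex and 72 YS-Ex cells, more cells than had all 3 subunits. *Fcer1g* and *Il1rl1* were found together in 80.7% of Em-Ex and 97.8% of YS-Ex cells. None of the 4 genes was found in 148 Em-Ex cells (4.82%, 4.09–5.64%) and 9 YS-Ex cells (0.431%, 0.197–0.817%). At these depths a cell without a UMI cannot be called a cell without the transcript.

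The cells rich in *Fcer1a*, a class set at 5 or more UMIs after its values were seen, had the subunits in other ratios. In the 31 Em-Ex cells there were 3.74 (3.31–4.24) *Fcer1g* UMIs and 0.191 (0.143–0.251) *Ms4a2* UMIs per *Fcer1a* UMI. In the 25 YS-Ex cells the ratios were 3.23 (2.84–3.67) and 0.0594 (0.0353–0.0943). *Fcer1a* was thus above *Ms4a2* in these cells, as their choice by *Fcer1a* fixes in part. Of the genes not used in this choice, *Ms4a2* reached 165 CPM (127–212) in the 31 Em-Ex cells against 37.8 CPM (35.9–39.7) in the 2919 Em-Ex cells without an *Fcer1a* UMI. In the 1917 of the latter with at least 5000 CPM of *Cpa3* it was at 56.1 CPM (53.1–59.2). In YS-Ex it was at 59.9 CPM (36.1–93.5) in the rich cells against 64.4 CPM (61.3–67.5) in the 1972 cells without, where the intervals overlap. The higher beta chain beside the alpha chain was thus seen in Em-Ex, and whether the libraries differ in it was not tested. Of the Em-Ex cells, 13 of the 31 rich in *Fcer1a* lay in cluster 8 of those described later, against 162 of the 2919 without it. All 199 Em-Ex cells of that cluster together had *Ms4a2* at 124 CPM (108–142), an interval that overlaps that of the rich cells. The part of this cluster in the higher *Ms4a2* was not tested. *Fcer1g* was at 3236 CPM (3057–3424) and 3257 CPM (3061–3461) in the rich cells of Em-Ex and YS-Ex. It was at 2105 CPM and 2593 CPM in all cells without *Fcer1a*, and at 2976 CPM (2954–2998) and 2690 CPM (2669–2711) in those of them with at least 5000 CPM of *Cpa3*. *Il1rl1* was at 437 CPM (373–509) and 1217 CPM (1099–1345) in the rich cells, against 470 CPM (461–479) and 930 CPM (918–943) in the cells without *Fcer1a* that had at least 5000 CPM of *Cpa3*. The rich cells had nearly the median depth of their libraries, with medians of 11258 and 12114 UMIs.

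Other granule genes differed between the *Fcer1a*-rich cells of the libraries. *Mcpt1*, a protease of mucosal mast cells, reached 3228 CPM (3049–3415) in the 31 Em-Ex cells and had 0 UMIs in the 25 YS-Ex cells, which allows up to 9.46 CPM. In the cells without *Fcer1a* it was at 411 CPM in Em-Ex against 171 CPM in YS-Ex. *Cma1*, a chymase, had 9845 CPM in the Em-Ex and 26807 CPM in the YS-Ex rich cells, against 11571.5 CPM and 14041 CPM in the cells without *Fcer1a*. *Cpa3* had 17618 CPM and 28219 CPM in the rich cells, against 8414 CPM and 16138 CPM. *Hdc*, the enzyme of histamine synthesis, was at 655 CPM (576–742) and 2973 CPM (2786–3169), against 2053 CPM and 1979 CPM in the cells without *Fcer1a*. Of the rich cells, 13 of the 31 in Em-Ex lay in cluster 8 of those described later, which *Mcpt1* leads, and 9 of the 25 in YS-Ex lay in cluster 5. Since basophils also carry the receptor, their markers were read in the same cells. *Prss34* had 7.99 CPM in the Em-Ex and 0 UMIs in the YS-Ex rich cells, against 11.1 CPM and 20.8 CPM in the cells without *Fcer1a*. *Mcpt8* had 24.0 CPM and 224 CPM in the rich cells, against 95.4 CPM and 33.9 CPM. *Cd200r3* had 336 CPM and 561 CPM, against 306 CPM and 297 CPM, and *Itgb7* 296 CPM and 199 CPM, against 218 CPM and 197 CPM. *Itga2* had 2.66 CPM and 3.15 CPM, from 1 UMI in each library, against 0.881 CPM and 7.38 CPM. The 5 genes of the basophil list summed to 666 CPM in the 31 Em-Ex and 987 CPM in the 25 YS-Ex rich cells. They summed to 631 CPM and 555 CPM in the cells without *Fcer1a*. The 9 mast cell genes summed to 33862 CPM and 75817 CPM in the rich cells, against 28250 CPM and 41750 CPM. In Em-Ex, of these 9 genes, *Cpa3*, *Gata2* (597 CPM against 398 CPM) and *Slc18a2* (104 CPM against 71.7 CPM) were higher in the rich cells. *Cma1*, *Hdc*, *Tpsb2* (4507 CPM against 4775 CPM), *Mcpt4* (501 CPM against 737 CPM) and *Tpsab1* (7.99 CPM against 200 CPM) were lower there. The intervals of *Mitf* overlapped, and the Em-Ex sum thus does not stand for each gene. The part of basophils in the level of *Fcer1a* was not tested.

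All 4 genes were higher in cells with more *Cpa3*. In Em-Ex cells over 5000 CPM of *Cpa3* against those under it, *Fcer1a* was 11.5 times as high (7.93–17.2), *Ms4a2* 4.83 times (4.19–5.60), *Il1rl1* 3.71 times (3.54–3.88) and *Fcer1g* 3.29 times (3.23–3.34). In YS-Ex the ratios were 5.24 (2.73–11.5), 2.16 (1.72–2.75), 2.03 (1.92–2.16) and 1.69 (1.64–1.74). The lower side held different cells in the libraries, since 479 of its 1021 cells in Em-Ex and 18 of its 192 cells in YS-Ex lay in cluster 7 of those described later. Against the cells of 1000 to 5000 CPM alone, the ratios were smaller and closer between the libraries, in Em-Ex 5.33 (3.54–8.39) for *Fcer1a*, 1.92 (1.66–2.23) for *Ms4a2*, 1.47 (1.41–1.54) for *Il1rl1* and 1.44 (1.42–1.47) for *Fcer1g*, and in YS-Ex 4.13 (2.08–9.62), 1.69 (1.33–2.18), 1.53 (1.43–1.62) and 1.43 (1.38–1.49). Across cells, Spearman's rho with *Cpa3* was 0.69 for *Fcer1g* and 0.62 for *Il1rl1* in the 3071 Em-Ex cells, and 0.44 and 0.37 in the 2087 YS-Ex cells. Of 1986 genes with at least 50 CPM in both libraries, only 5 in Em-Ex and 3 in YS-Ex had a higher rho than *Fcer1g*. For *Ms4a2* rho was 0.27 and 0.14, and for *Fcer1a* 0.14 and 0.09, weak values in sparse counts. Within the cells of at least 5000 CPM of *Cpa3* the libraries were closer, with a rho of 0.41 in Em-Ex and 0.39 in YS-Ex for *Fcer1g*, 0.32 and 0.31 for *Il1rl1*, and 0.08 and 0.09 for *Ms4a2*. The points of these correlations are cells of 1 library each, and levels of 2 genes in a cell share its depth.

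Along the ranges of *Cpa3*, the pooled level of *Fcer1a* changed more than those of the other genes. Between cells of 5000 to 10000 CPM of *Cpa3* and cells of 20000 CPM and over, *Cpa3* itself differed 3.71-fold in Em-Ex and 3.51-fold in YS-Ex. *Fcer1a* had 6.37, 24.5 and 39.1 CPM in the Em-Ex cells of 5000 to 10000, 10000 to 20000 and at least 20000 CPM of *Cpa3*, and 5.83, 15.3 and 32.5 CPM in those of YS-Ex. Its pooled level thus differed 6.13-fold (4.61–8.24) in Em-Ex and 5.57-fold (3.79–8.47) in YS-Ex between the outer 2 of these ranges. The share of cells with an *Fcer1a* UMI there was 3.48% and 9.73% in Em-Ex, and 2.93% and 7.21% in YS-Ex. Since few cells hold most of its UMIs, no order between *Fcer1a* and *Cpa3* is read from the pooled folds. The pooled levels of the other genes differed less, *Ms4a2* by 1.52-fold and 1.33-fold, *Fcer1g* by 1.503-fold and 1.48-fold, and *Il1rl1* by 1.70-fold and 1.63-fold. The ratio of *Ms4a2* to *Fcer1a* UMIs was therefore 7.94 (6.15–10.4) in Em-Ex cells of the lower range and 1.96 (1.64–2.36) in those of the upper, and 9.41 (6.41–14.3) and 2.25 (1.95–2.61) in YS-Ex. The ratio of *Fcer1g* to *Ms4a2* moved little, from 49.4 to 49.0 in Em-Ex and from 39.4 to 43.7 in YS-Ex. Without the cells of 5 or more *Fcer1a* UMIs, the log2 ratio of *Fcer1a* over against under 5000 CPM of *Cpa3* went from 3.52 to 2.52 in Em-Ex and from 2.39 to 0.79 in YS-Ex.

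**Figure D3:**
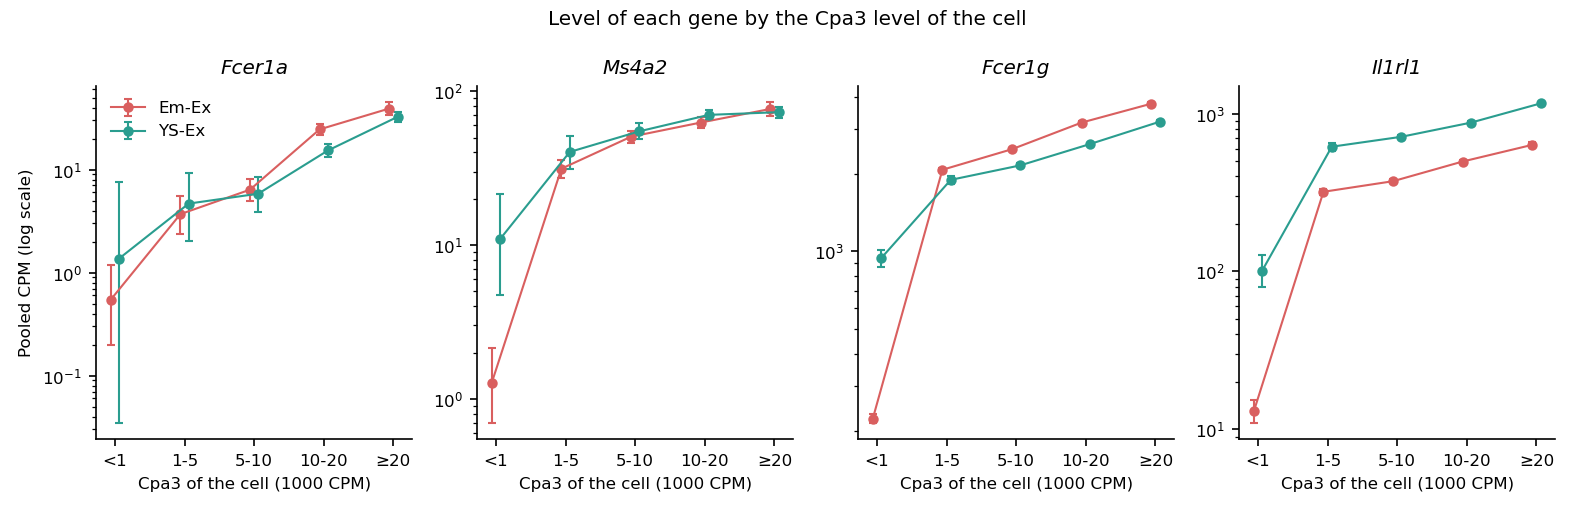
Pooled level (CPM, log scale) of each gene in cells of 5 ranges of *Cpa3* (in 1000 CPM), as points for Em-Ex and YS-Ex with 95% counting intervals. *Il1rl1* is higher in YS-Ex in every range, *Fcer1g* is higher in Em-Ex in all ranges from 1000 CPM up, and *Fcer1a* is at 6.37 CPM (Em-Ex) and 5.83 CPM (YS-Ex) in the middle range and at 39.1 CPM and 32.5 CPM in the highest.

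The libraries differed in how many cells had little *Cpa3*. Under 5000 CPM of *Cpa3* were 1021 Em-Ex cells (33.2%, 31.6–34.9%) and 192 YS-Ex cells (9.20%, 7.99–10.52%). The comparison between libraries was therefore repeated within the ranges. *Fcer1g*, higher in YS-Ex over all cells, was lower in YS-Ex in each of the 4 ranges from 1000 CPM up, at 0.914 (0.879–0.9495), 0.865 (0.846–0.885), 0.825 (0.812–0.838) and 0.851 (0.835–0.867) of its Em-Ex level. Only under 1000 CPM of *Cpa3* was it higher in YS-Ex, at 941 CPM in 50 cells against 224 CPM in 564 Em-Ex cells. The cells of this range fell into clusters in different shares, as cluster 7, which *Mpo* leads, held 467 of the 564 in Em-Ex but 16 of the 50 in YS-Ex. In cluster 10 lay 13 of the YS-Ex cells, which held 394 of the 688 *Fcer1g* UMIs of the range. It also held 33 of the Em-Ex cells, with 1171 of the 2461 *Fcer1g* UMIs. *Cpa3* itself was 1.66 times as high (1.43–1.91) in YS-Ex within this range, and the part of either in the difference was not tested. *Il1rl1* was at 13.0, 320, 373, 497 and 634 CPM in the 5 ranges of Em-Ex cells, from the lowest *Cpa3* to the highest, and at 101.2, 617, 713, 877 and 1160 CPM in those of YS-Ex cells. It was higher in YS-Ex in all 5 ranges, and in those from 1000 CPM up it was 1.93 (1.79–2.08), 1.91 (1.83–2.00), 1.76 (1.71–1.83) and 1.83 (1.76–1.91) times as high in YS-Ex.

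The alpha and beta subunits were then read in the same ranges. *Fcer1a* in YS-Ex was 0.624 (0.511–0.762) of its Em-Ex level between 10000 and 20000 CPM of *Cpa3*, and the intervals of its ratio held 1 in the other 4 ranges. That ratio also rests on few cells, as the share of cells with a UMI there was 7.56% in Em-Ex and 5.85% in YS-Ex, but 3.48% (2.34–4.96%) and 4.10% (2.87–5.65%) at 3000 UMIs per cell, so that no direction is read from it. *Ms4a2* was 1.12 times as high (1.01–1.25) in YS-Ex between 10000 and 20000 CPM, with intervals that held 1 in the other ranges from 1000 CPM up. Under 1000 CPM its ratio of 8.60 (3.12–22.0) rested on 8 UMIs in 3 of the 50 YS-Ex cells, and no direction is read from it. Over all cells above 5000 CPM of *Cpa3*, YS-Ex was at 0.981 (0.863–1.12) for *Fcer1a*, 1.13 (1.05–1.21) for *Ms4a2*, 0.908 (0.899–0.918) for *Fcer1g* and 2.00 (1.96–2.04) for *Il1rl1*. *Kit* was 2.90 times as high (2.83–2.97) in YS-Ex in the same cells, beside the difference of *Il1rl1*, and its part in that difference was not tested.

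**Figure D4:**
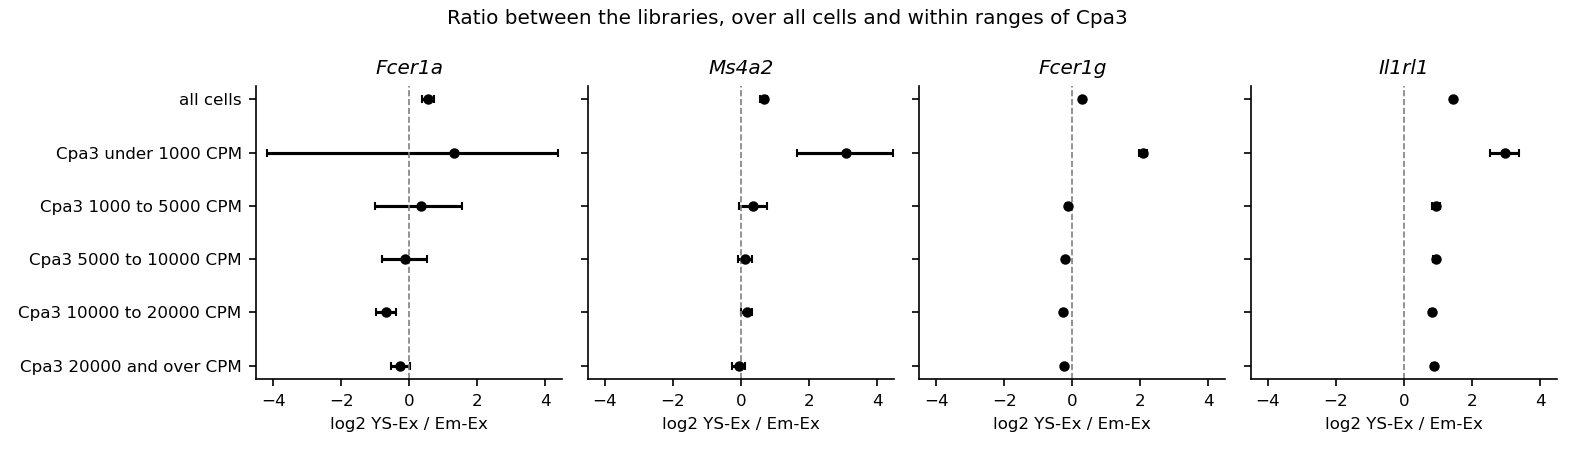
log2 ratio of YS-Ex to Em-Ex for each gene, over all cells and within 5 ranges of *Cpa3* (rows), as points with 95% counting intervals, where the dashed line marks equal levels. The points of *Il1rl1* lie right of the line in every row, while those of *Fcer1g* lie right of it over all cells and under 1000 CPM and left of it in the other ranges.

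For a view across kinds of cells, the cells were grouped on variable genes without the 4 receptor genes and *Cpa3*, which gave 12 clusters, numbered by size. In 8 of them, the 9 genes of the mast cell list summed to between 22643 and 62349 CPM, and in clusters 7, 10, 11 and 12 to between 725 and 2108 CPM. The 5 genes of the basophil list, some of which mast cells express as well, summed to 487–952 CPM in the same 8 clusters and to 4.67–89.5 CPM in the others, and their part in the receptor levels was not tested.

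*Fcer1a* differed most among the 8 clusters. It was highest in cluster 8, led by *Mcpt1*, *Mcpt2*, *Clec4a2*, *Il1r2* and *Avil*, at 106 CPM (90.9–122) in 199 Em-Ex cells, of which 18.6% had a UMI. In the 21 YS-Ex cells of that cluster it was at 211 CPM (155–280.4), which came from 2 cells (9.52%). Cluster 5, led by *Pigz*, *Dnm3*, *Nmb*, *Mrgprb2* and *Itga2b*, had 40.7 CPM (32.2–50.7) in Em-Ex against 48.6 CPM (41.7–56.3) in YS-Ex. At the other end was cluster 6, led by *Cd3g*, *Ccdc180*, *Itga4*, *Tob1* and *Pdlim1*, with 0.319 CPM (0.00807–1.78) in 231 Em-Ex cells and 2.26 CPM (1.17–3.94) in 325 YS-Ex cells. Between the libraries, the pooled *Fcer1a* level was 2.92 (2.00–4.31), 1.79 (1.24–2.58), 1.997 (1.42–2.76) and 1.90 (1.04–3.65) times as high in YS-Ex in clusters 1, 2, 8 and 9, and the intervals held 1 in clusters 3, 4 and 5. These pooled ratios rest on few cells. The share of cells with a UMI was 3.84% in Em-Ex and 6.29% in YS-Ex in cluster 1, 5.02% and 4.05% in cluster 2, 18.6% and 9.52% in cluster 8 and 9.09% and 9.48% in cluster 9, with overlapping intervals in each, so that no direction between the libraries is read from them.

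The beta chain did not follow the alpha chain in every cluster. In Em-Ex both were highest in cluster 8, where *Ms4a2* had 124 CPM (108–142). In cluster 6, where *Fcer1a* was lowest of the 8 clusters, *Ms4a2* had 62.5 CPM (54.1–71.9) in cells of Em-Ex and 90.8 CPM (82.9–99.3) in its YS-Ex cells, the highest of any YS-Ex cluster. In YS-Ex there were thus 40.2 *Ms4a2* UMIs per *Fcer1a* UMI in cluster 6 and 1.07 in cluster 5. *Fcer1g* stayed between 1824 and 3730 CPM in all 8 clusters and both libraries, and *Il1rl1* between 327 and 694 CPM in Em-Ex and between 559 and 1408 CPM in YS-Ex. *Il1rl1* was higher in YS-Ex in each of the 8 clusters, by 1.71-fold to 2.03-fold. *Fcer1g* was lower in YS-Ex in clusters 1, 2, 3, 5 and 8, at 0.855 to 0.899 of its Em-Ex level, and higher in clusters 4 and 6, at 1.03 (1.003–1.07) and 1.16 (1.12–1.19), while the interval of cluster 9 held 1.

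**Figure D5:**
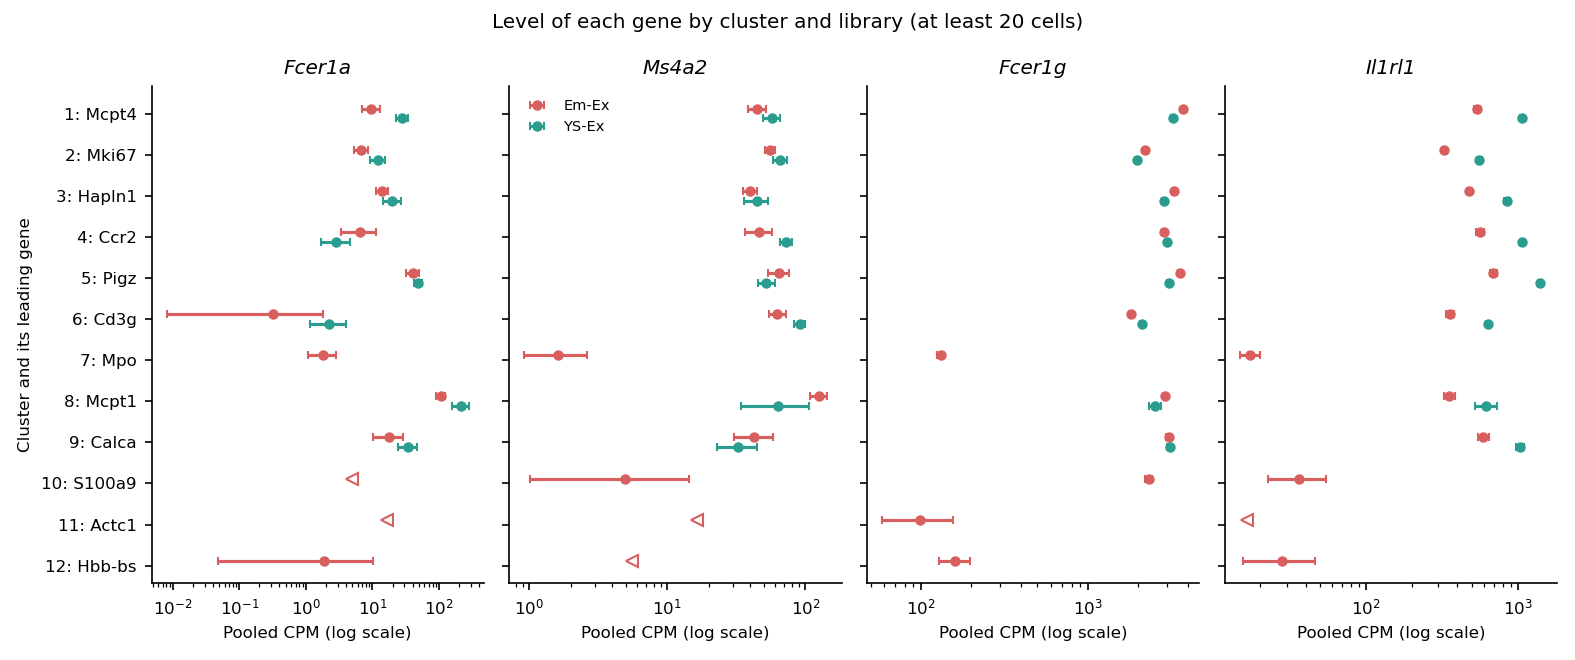
Pooled level (CPM, log scale) of each gene in the 12 clusters, named by number and leading gene, for Em-Ex and YS-Ex where a library had at least 20 cells, with 95% counting intervals. Open triangles mark 0 UMIs at the limit that 3 UMIs would give. *Fcer1a* runs from 0.319 CPM in cluster 6 to 211 CPM in cluster 8, while *Fcer1g* is at 1824 CPM or more in the same clusters and also in cluster 10.

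The gamma chain was high in cluster 10 while the other subunits were low or had 0 UMIs. This cluster of 38 Em-Ex and 14 YS-Ex cells had *S100a9*, *S100a8*, *Spp1* and *Mmp12* among its leading genes and had markers of macrophages and of neutrophils, so that it is left unnamed. *Fcer1g* was at 2316 CPM (2197–2440) in its Em-Ex and 2069 CPM (1875–2279) in its YS-Ex cells, inside the range of the 8 clusters. *Fcer1a* had 0 UMIs there, which allows up to 4.91 CPM in the Em-Ex cells. *Ms4a2* was at 4.91 CPM (1.01–14.4), *Il1rl1* at 36.0 CPM (22.6–54.6) and *Cpa3* at 904 CPM in the Em-Ex cells. In cluster 7, which was led by *Mpo*, *Prtn3*, *BC035044*, *Il12a* and *Cox4i2* and held 483 Em-Ex cells but 18 YS-Ex cells, *Fcer1g* was at 131 CPM (124–139) and *Il1rl1* at 17.2 CPM (14.7–20.0) in Em-Ex. In the 18 YS-Ex cells they were at 274 CPM (216–343) and 21.6 CPM (7.93–47.1). For comparison, the 24 Em-Ex cells of cluster 12, with *Hbb-bs*, *Hba-a2*, *Hba-a1* and *Hemgn* among its leading genes, had 160 CPM (128–197) of *Fcer1g* and 27.9 CPM (15.6–45.9) of *Il1rl1*, and those of cluster 11 had 98.8 CPM and 0 UMIs. Set against *Cpa3*, *Fcer1g* UMIs were 48.2% as many in the Em-Ex cells of cluster 7, 62.1% in cluster 11 and 63.2% in cluster 12, beside 24.8% in all Em-Ex cells. Whether free RNA, mixed droplets or the cells themselves gave these low levels was not tested. Without cluster 7, the log2 ratio of *Fcer1g* between the libraries went from 0.29 to −0.057, that of *Ms4a2* from 0.67 to 0.32 and that of *Fcer1a* from 0.54 to 0.22.

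Of 12 receptors listed around the gamma chain, 8 were in the table, and 2 of these reached 10 CPM in a library. The list also held *Clec5a*, which pairs with DAP12, and *Fcer2a*, a receptor for IgE that needs no gamma chain. *Fcgr3*, a low-affinity receptor for IgG, was at 409 CPM (403–415) in Em-Ex against 333 CPM (326–340) in YS-Ex, a ratio of 0.814 (0.794–0.835). *Pira2*, an activating receptor of the paired immunoglobulin-like family, was 1.75 times as high (1.58–1.95) in YS-Ex, with 26.6 CPM against 15.2 CPM. Of these 2 genes 0 were past 2-fold, beside 9.84% higher and 5.33% lower over all genes, and their log2 ratios of −0.30 and 0.81 had opposite signs. The other 6 in the table were under 10 CPM in both libraries and each lower in YS-Ex, from 7.91 CPM of *Clec4d* in Em-Ex against 2.26 CPM in YS-Ex to 2.85 CPM of *Clec5a* against 0 UMIs. In cells under 5000 CPM of *Cpa3*, however, *Fcgr1*, *Fcgr4* and *Clec4d* were at 11.5, 5.60 and 16.7 CPM in Em-Ex against 14.7, 12.7 and 17.6 CPM in YS-Ex. *Clec4n* was at 7.14 CPM against 5.73 CPM there. *Clec4e* and *Clec5a* had 0 UMIs in all of YS-Ex, where counts in fewer than 30 barcodes may not be shown.

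Kinases and adaptors that act around the receptor were read from a list. Of 23 listed genes that reached 10 CPM, 19 were within 2-fold between the libraries, 4 were at least 2-fold higher in YS-Ex and 0 at least 2-fold lower, against 9.84% and 5.33% of all 7227 such genes, and their median log2 ratio was 0.48 against −0.01 over all such genes. The 4 were *Sos1* (3.23-fold, 2.77–3.78), *Stim1* (3.25-fold, 2.93–3.62), *Gab2* (3.18-fold, 2.83–3.58) and *Pik3r1* (2.17-fold, 2.03–2.32), which encode a Ras exchange factor, a calcium sensor of the endoplasmic reticulum, an adaptor and a regulatory subunit of PI 3-kinase. By the level in the library where each was higher, the highest genes of the list were *Lat2*, an adaptor, at 246 CPM in Em-Ex against 249 CPM in YS-Ex, and *Prkcb*, a protein kinase C, at 180.0 CPM and 251 CPM. Chosen after their values were seen, as the partners named above, *Lyn* was 1.43 times as high (1.36–1.51) and *Syk* 1.48 times (1.31–1.68) in YS-Ex, whereas *Lat*, the adaptor that gathers the signal, was at 0.686 (0.661–0.711). In cells over 5000 CPM of *Cpa3* the ratio of YS-Ex to Em-Ex was 0.742 (0.718–0.766) for *Lat2* and 1.06 (1.02–1.10) for *Prkcb*. It was 3.70 for *Sos1*, 2.67 for *Stim1*, 2.95 for *Gab2* and 2.62 for *Pik3r1*. For *Lyn*, *Syk* and *Lat* it was 1.25, 1.75 and 0.528.

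The 15 genes that reached 10 CPM among receptors and phosphatases known to hold mast cells back included 0 past 2-fold in either direction, with a median log2 ratio of 0.26, beside 9.84% higher, 5.33% lower and a median of −0.01 over all genes. Their highest members by the same measure were *Lilrb4a*, an inhibitory receptor, at 253 CPM in Em-Ex against 354 CPM in YS-Ex, and *Inpp5d*, the lipid phosphatase SHIP1, at 68.6 CPM and 127 CPM, 1.85 times as high (1.76–1.94) in YS-Ex.

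On the side of IL-33, 13 of 19 listed genes reached 10 CPM, 1 was at least 2-fold higher in YS-Ex and 1 at least 2-fold lower, with a median log2 ratio of 0.26. Over all genes the shares were 9.84% and 5.33% and the median −0.01, so that the counts of this list were near the background. *Map3k7*, the kinase TAK1, was at 16.3 CPM in Em-Ex against 33.3 CPM in YS-Ex, 2.05 times as high (1.85–2.26). *Il1r2*, a decoy receptor for IL-1 and a leading gene of cluster 8, was at 10.4 CPM and 4.48 CPM, 0.429 of its Em-Ex level (0.348–0.526). The highest of the list by the same measure were *Nfkbia*, the inhibitor of NF-kappa-B, at 169 CPM and 111 CPM, and *Tab2*, a partner of TAK1, at 47.5 CPM and 86.1 CPM. The accessory chain *Il1rap*, chosen after its values were seen, was at 1.05 CPM (0.768–1.41) in Em-Ex against 1.07 CPM (0.718–1.54) in YS-Ex, far below *Il1rl1* at 330 CPM and 898 CPM. In cells over 5000 CPM of *Cpa3* the ratio of YS-Ex to Em-Ex was 1.79 (1.60–2.00) for *Map3k7* and 0.321 (0.256–0.400) for *Il1r2*. It was 0.537 (0.513–0.563) for *Nfkbia* and 1.81 (1.69–1.95) for *Tab2*.

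The genes most like each receptor gene were sought among 1985 genes with at least 50 CPM in both libraries, by the Pearson correlation of log-normalized levels across cells, averaged over the libraries. For *Fcer1g* they were *Cpa3* (0.72), *Tyrobp* (0.70), *Cma1* (0.69), *Srgn* (0.68) and *Cyp11a1* (0.66), and for *Il1rl1* they were *Cpa3* (0.62), *Cyp11a1* (0.56), *Cma1* (0.54), *Srgn* (0.53) and *Kit* (0.52). For *Ms4a2* the highest were *Cpa3* (0.22), *Lgals1* (0.20), *Mns1* (0.20), *Cpb1* (0.19) and *Papss2* (0.19), and for *Fcer1a* they were *Rprm* (0.19), *Pla2g7* (0.19), *Gm2a* (0.16), *Lilrb4a* (0.14) and *Nmb* (0.14). Ranked by Spearman correlation, 3 or 4 of each 5 genes stayed among the highest, and across 17 groups of cells by cluster and library 0 did. The values for *Ms4a2* and *Fcer1a* are low, and *Nmb* belongs to the leading genes of cluster 5. Among the receptor genes, r between *Fcer1g* and *Il1rl1* was 0.69 in Em-Ex and 0.38 in YS-Ex, and within the cells over 5000 CPM of *Cpa3* it was 0.21 and 0.19. *Fcer1a* and *Ms4a2* had an r of 0.15 in Em-Ex and 0.00 in YS-Ex.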

How the data were processed

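The cells were measured as 1 droplet library per condition, and both columns of barcodes in the table named their library, so that 0 columns were left unmapped. Per the submitters' processing notes, bcl2fastq 2.19.1.403 and Cell Ranger 2.0.1 with the mm10 build were used. The authors deposited raw UMI counts per gene and cell without normalization, in 1 table of 11691 genes and 6541 barcodes. The gene filter behind it was not given in the sources used here. Cells with 1000 to 5000 genes and at most 5% mitochondrial UMIs were kept, as in the study's methods, and doublets were not removed otherwise. The numbers of cells that the study shows equal the deposited barcodes (3504 Em-Ex, 3037 YS-Ex) and not those left by this filter (3071 and 2087). The kept cells held 42752370 (Em-Ex) and 27031627 (YS-Ex) UMIs, from 3302 to 38114 in a cell.

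Levels have exact Poisson, ratios exact conditional binomial and shares exact Clopper-Pearson 95% intervals, which cover counting error only. A count of 0 in a group of cells was read as a limit of 3 UMIs. That limit does not hold for a gene at 0 in a whole library, where counts in fewer than 30 barcodes may not be shown. Log2 ratios over all genes used a prior count of 0.5, and a gene was called past 2-fold among those with at least 10 CPM in a library. Clusters came from 2000 variable genes, log-normalized to 10000 UMIs per cell, with libraries aligned by mutual nearest neighbors (k = 20), and 100 principal components, 20 neighbors and leidenalg 0.10.2 at resolution 1. The correction was written in numpy 2.4.6 and can differ from the scran version. Leading genes are the 5 of largest fold with at least 20 CPM in the cluster, and some of them are not reported here. Motifs and positions came from RefSeq and GENCODE tables of GRCm38, and all 4 genes were matched by symbol.

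The receptor genes, gene lists and ranges of *Cpa3* were chosen with earlier results of these data known. Named genes were the 4 receptor genes and *Cpa3*, list members past 2-fold, the 2 highest of each list, the 5 most like each receptor gene, leading genes and markers. *Kit*, *Tyrobp* and *Mcpt1* were also read as genes beside the results. The steps were tested on simulated counts drawn from the real means. Tools were Python 3.11.15, scipy 1.17.1, pandas 2.3.3, scikit-learn 1.9.0 and matplotlib 3.10.9. The alternatives were other cell filters, means over cells, other scalings, other limits on *Cpa3*, shared barcodes left out, thinning, other floors and other clusterings.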

Additional observations from a re-analysis of the deposited data

How the results depend on the processing

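No paired analysis was possible because each condition was 1 library and the labels carry no replicate numbers, and leaving out a replicate was not possible for the same reason. Of 162 values recomputed for the main results, 75 stayed within the counting interval of the main value, or within 1.5 times a count, and 11 changed direction. All values follow on the log2 scale, except for ratios of UMIs and counts of genes.

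For the ratio of YS-Ex to Em-Ex, the main values were 0.54 for *Fcer1a*, 0.67 for *Ms4a2*, 0.29 for *Fcer1g* and 1.44 for *Il1rl1*. In cells over 5000 CPM of *Cpa3* they were −0.027, 0.18, −0.14 and 0.9998. Within the ranges of *Cpa3*, in the same order of genes, they were 1.33, 3.10, 2.07 and 2.96 under 1000 CPM, 0.34, 0.36, −0.13 and 0.95 from 1000 to 5000 CPM, −0.13, 0.12, −0.21 and 0.93 from 5000 to 10000 CPM, −0.68, 0.17, −0.28 and 0.82 from 10000 to 20000 CPM and −0.27, −0.069, −0.23 and 0.87 at 20000 CPM and over. Without the cluster highest in *Mpo*, an alternative added after seeing the data, they were 0.22, 0.32, −0.057 and 1.10. Over every deposited barcode, *Fcer1a* was at 0.75, *Fcer1g* at 0.32 and *Il1rl1* at 1.58. As means over cells, *Ms4a2* was at 0.33, *Fcer1g* at 0.15 and *Il1rl1* at 1.35. Without an upper limit on genes, *Fcer1g* was at 0.34 and *Il1rl1* at 1.49, with a mitochondrial limit of 10% *Il1rl1* was at 1.503, and scaled by the median ratio over genes, which shifted all values by 0.03, *Fcer1g* was at 0.32.

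*Ms4a2* UMIs per *Fcer1a* UMI moved from 3.30 in Em-Ex and 3.63 in YS-Ex to 2.83 and 2.64 as means over cells, and *Fcer1g* UMIs from 174 and 147 to 151 and 124. In YS-Ex they moved to 3.05 and 128 over every barcode and to 2.92 and 125 with the mitochondrial limit of 10%. Without the cells of 5 or more *Fcer1a* UMIs, added after seeing the data, they were 8.33 and 10.6 for *Ms4a2* and 450.0 and 428 for *Fcer1g*.

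For cells over against under 5000 CPM of *Cpa3*, given for Em-Ex and then YS-Ex, the main values were 3.52 and 2.39 for *Fcer1a*, 2.27 and 1.11 for *Ms4a2*, 1.72 and 0.76 for *Fcer1g* and 1.89 and 1.02 for *Il1rl1*. Without the cells under 1000 CPM of *Cpa3*, added after seeing the data, they were 2.41 and 2.05, 0.94 and 0.76, 0.53 and 0.52, and 0.56 and 0.61. *Fcer1a* was at 2.52 and 0.79 without its rich cells and at 4.67 in Em-Ex with a limit of 2000 CPM. With that limit *Ms4a2* was at 4.39 and 2.39, *Fcer1g* at 3.03 and 1.25 and *Il1rl1* at 3.84 and 2.57, and with a limit of 8000 CPM they were at 1.47 and 0.65, 1.25 and 0.58, and 1.41 and 0.83. *Fcer1g* was at 1.83 and 0.84 over every barcode, 1.43 and 0.62 as means over cells, 1.86 and 0.88 without an upper limit on genes and, in Em-Ex, 1.68 with the mitochondrial limit of 10%. *Il1rl1* was at 1.64 and 0.87 as means over cells, 2.03 and 1.14 without an upper limit on genes and, in Em-Ex, 1.82 with the mitochondrial limit of 10%.

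Genes at least 2-fold higher in YS-Ex numbered 711, but 246 with a floor of 50 CPM and 1108 with no floor, and those at least 2-fold lower numbered 385, but 108 with a floor of 50 CPM. The cause of the other changes was not tested. Leaving out barcodes found in both libraries, and leaving *Cpa3* out of the totals, moved none of the values run with them beyond the counting interval. Of 36 further values, 13 did not move beyond it, and those that moved were shares of cells after thinning, levels in the *Mpo* cluster at resolution 2 and lists of most similar genes. Whether a difference lay in the tissue or in the single library made from it cannot be told apart, and shares of cells with *Fcer1a* are limited by depth.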

Other observations

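Mast cell transcription factors were also read in both libraries. Of 12 listed genes 10 reached 10 CPM in a library, 2 were at least 2-fold higher in YS-Ex and 0 at least 2-fold lower, with a median log2 ratio of 0.63, beside 9.84% higher, 5.33% lower and a median of −0.01 over all genes. *Runx1*, a factor of early blood formation, was at 61.2 CPM (58.9–63.6) in Em-Ex against 179 CPM (174–184) in YS-Ex, 2.93 times as high (2.79–3.07), and *Meis2*, a homeobox gene, at 46.9 CPM (44.9–49.0) and 140 CPM (136–145), 2.99 times as high (2.83–3.16). *Gata2*, a factor of mast cells and their progenitors, was at 405 CPM (399–412) and 708 CPM (698–718), 1.75 times as high (1.71–1.78). In cells over 5000 CPM of *Cpa3* the ratio of *Runx1* was 3.25 (3.06–3.45), that of *Meis2* 2.14 (2.02–2.26) and that of *Gata2* 1.32 (1.29–1.35).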
